A study of Homo sapiens with 18 samples.

Results

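The interferon response and MHC class I genes described here are 48 genes of the 58735 in the deposited gene table, each matched by its Ensembl identifier to 1 listed symbol. They were followed through 18 RNA-seq libraries of RPMI-8402, an established line derived from a human T-cell acute lymphoblastic leukaemia. PIK3R1 knockout cells (KO) were each given CB-103, GSI or DMSO for 24 h, and so were cells with a non-targeting guide (NT), labelled as wild type, with 3 replicates in each of the 6 groups. CB-103 blocks the NOTCH transcription complex. GSI, marked LY in the sample titles, is a gamma-secretase inhibitor, which stops the release of the active NOTCH fragment. DMSO is the vehicle. PIK3R1 encodes a protein that regulates the phosphoinositide kinase PI3K. All groups share 1 leukaemia line. The sources used here give no doses and do not say whether the KO cells were a clone or a pool, and no interferon treatment is named in the labels. The labels do not say that replicates were separate cultures, so p-values measure only the spread between these libraries, which may be technical. Groups of cells were measured in bulk, so fewer cells that express a gene and less of its RNA per cell cannot be told apart.

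Type I interferons signal through a paired receptor and the kinases JAK1 and TYK2 to a complex of STAT proteins with IRF9. This complex binds the interferon-stimulated response element (ISRE) in the promoters of antiviral genes, and many of these genes keep a low basal level in cells that receive no interferon. MHC class I molecules, heavy chains paired with beta-2-microglobulin, display peptides that the proteasome cuts and the TAP transporter carries into the endoplasmic reticulum, and NLRC5 is their dedicated transcriptional activator. Some of these peptides come from the immunoproteasome, in which inducible subunits take the place of constitutive ones.

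The targeted gene was lower in KO cells, but not under every treatment. PIK3R1 had 25.9, 29.9 and 27.6 CPM (reads of the gene as a share of the library, scaled between libraries) in KO cells given CB-103, against 30.9, 33.5 and 29.1 in NT cells given CB-103. It had 27.4, 32.1 and 23.9 CPM in KO cells given GSI, against 50.7, 57.1 and 53.0 in NT cells given GSI. It had 23.1, 21.4 and 23.2 CPM in KO cells given DMSO, against 44.3, 45.5 and 42.5 in NT cells given DMSO. The groups did not overlap under GSI (log2 fold change -0.95 ± 0.09, adjusted p = 3.9e-07) or DMSO (-0.97 ± 0.09, adjusted p = 4.1e-07), where the transcript was lower in every KO library than in any NT library. Under CB-103 they overlapped and the gene was not called (-0.16 ± 0.09, adjusted p = 0.17). All tests across genes are edgeR quasi-likelihood tests fitted to 17346 genes, with Benjamini-Hochberg adjusted p-values over all of them, and 0.05 was the limit for a call. Fold changes are log2 values with their standard errors, and a positive value means higher in the group named first.

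Library totals ranged from 30416183 to 43558387 estimated reads, and log2 CPM correlated between libraries of 1 group at 0.985 to 0.991. The share of reads on mitochondrially encoded genes was 1.89% to 2.69% in KO and 4.74% to 5.47% in NT libraries given CB-103, 2.40% to 2.57% in KO and 1.90% to 5.51% in NT libraries given GSI, and 1.69% to 1.88% in KO and 3.09% to 3.72% in NT libraries given DMSO. All 7 T-lineage markers were present, with a summed level of 987 to 1051 CPM in KO cells given CB-103, against 1370.1 to 1469.5 CPM given DMSO, and 885 to 992 CPM in NT cells given CB-103, against 1628 to 1709 CPM given DMSO. The 6 myeloid markers summed to 32.5 to 40.3 CPM in KO cells given CB-103, against 3.79 to 4.90 CPM given DMSO, and to 15.03 to 16.8 CPM in NT cells given CB-103, against 5.14 to 6.14 CPM given DMSO. This rise lay in CD68, with 31.2 to 39.4 CPM in KO cells given CB-103, against 2.86 to 3.87 given DMSO. In NT cells CD68 had 13.7 to 15.4 CPM given CB-103, against 3.92 to 4.38 given DMSO. Only 2 of the 6 myeloid markers passed the count filter, CD68 and LYZ. Mean LYZ was 0.744 CPM in KO cells given CB-103, against 0.746 given DMSO, and 1.089 in NT cells given CB-103, against 1.045 given DMSO. The part of these shifts in the results below was not tested.

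Of the 48 genes, 47 passed the count filter. OASL, a relative of the oligoadenylate synthetases, had at most 1 count in any library and was not tested. Levels were compared between genes in TPM, which divides by transcript length, as means over all 18 libraries. B2M, the light chain of class I molecules, was highest at 1709 TPM, followed by the heavy chains HLA-C at 261 TPM and HLA-B at 217 TPM. At the low end stood OAS2 with 1.99 TPM, IFI44L with 1.397 TPM and IFITM3 with 0.883 TPM. The heavy chains and the antiviral membrane protein BST2 (159 TPM) were thus above all the RNA sensors and IFIT genes, of which the highest was ISG20 at 52.4 TPM. Interferon genes themselves were close to absent. None of 9 listed interferon genes passed the filter, 5 of them had no count in any library, and the highest count in a library was 5, for IFNL3.

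CB-103 moved most of the set, and in both directions. In KO cells 32 of 47 genes were called (68.1%, against 48.6% of all genes tested), 14 higher (24.9% of all genes) and 18 lower (23.7%). In NT cells 38 were called (80.9%, against 58.2% of all genes), 12 higher (29.5% of all genes) and 26 lower (28.7%). At least 2-fold changes were called for 6 genes in KO cells (9.87% of all genes), 4 higher and 2 lower, and for 15 in NT cells (17.9% of all genes), 5 higher and 10 lower. The median log2 fold change of the 47 genes was -0.03 in KO cells, where that of all genes was -0.01, and -0.27 in NT cells, where that of all genes was 0.04. Within the set the direction was mostly shared, since 12 genes were higher in both genotypes and 18 lower in both. The matching shares of all genes tested were not counted, so this sharing cannot be called particular to the set. IFIT2 alone was higher in KO and lower in NT cells, TAP1 was called in KO cells only, 7 genes were called lower in NT cells only, and 8 were called in neither.

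GSI moved fewer of these genes, and none by 2-fold or more (1.86% of all genes in KO and 2.94% in NT cells). In KO cells 18 of 47 were called (38.3%, against 19.3% of all genes), 12 higher (9.69% of all genes) and 6 lower (9.58%). In NT cells 17 were called (36.2%, against 24.7% of all genes), 7 higher (9.67% of all genes) and 10 lower (15%). Scaled to library totals instead, without the trimmed-mean factors, the splits were 10 higher and 8 lower in KO cells and 10 higher and 7 lower in NT cells. The median log2 fold change with GSI was 0.09 in KO and -0.04 in NT cells. Within a genotype both inhibitors were compared with the same DMSO libraries, so their values are set side by side and no overlap is counted between them.

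**Figure D1:**
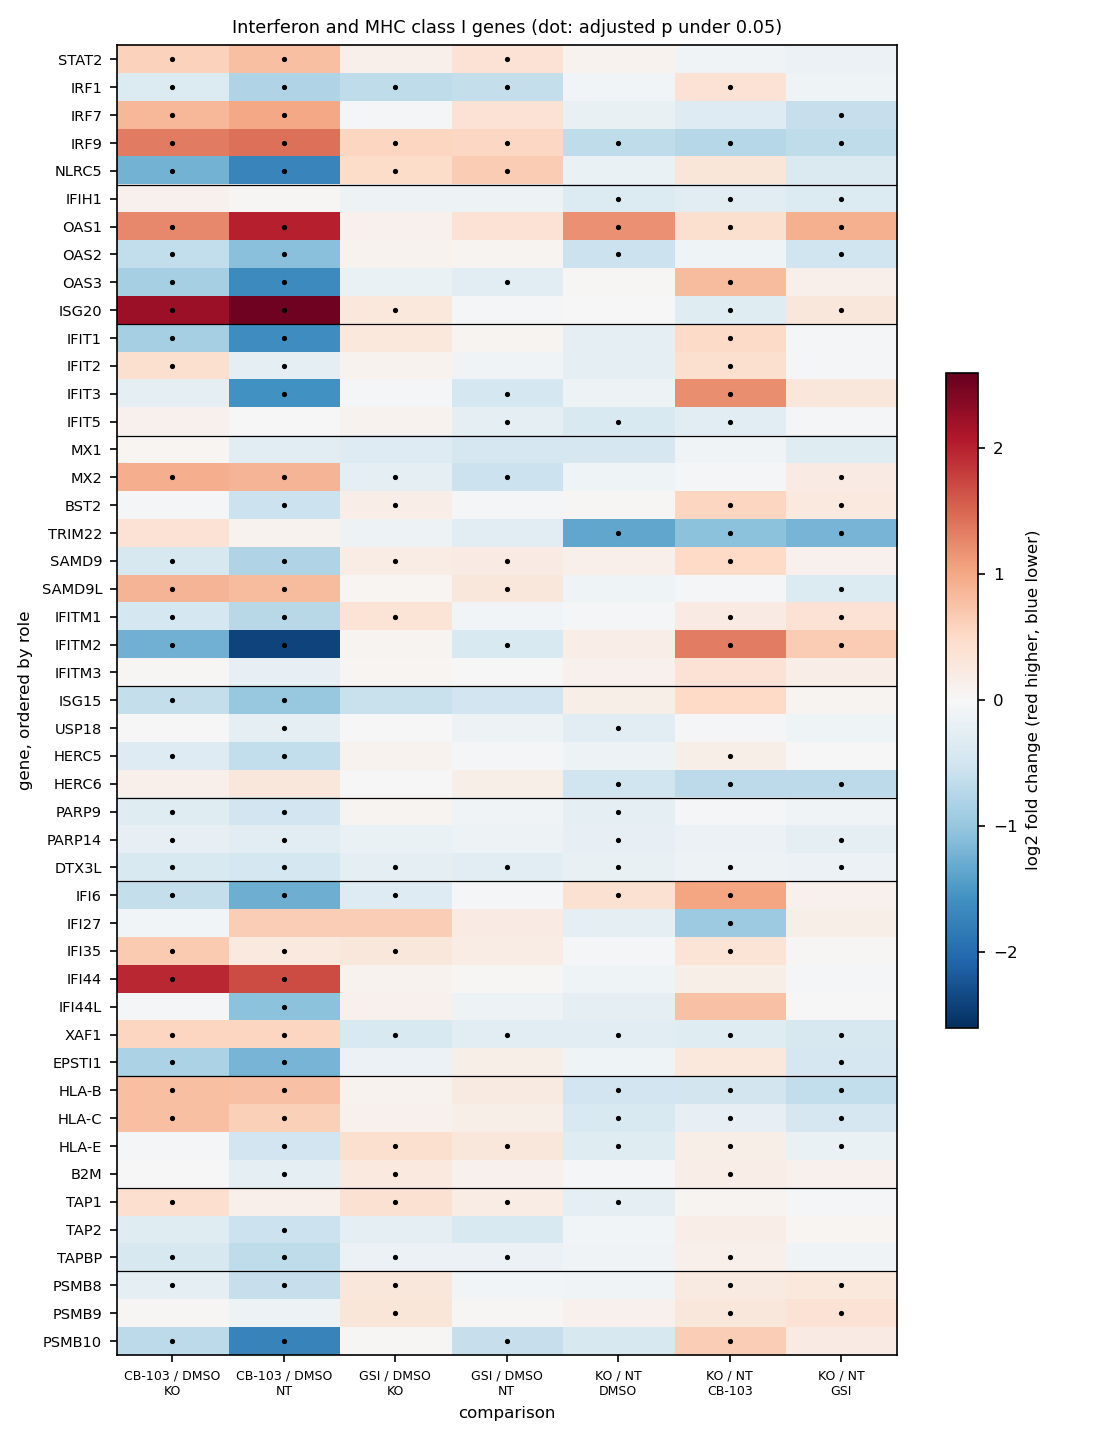
Log2 fold change (colour, blue lower and red higher) of the 47 tested genes, in rows grouped by role, in 7 comparisons in columns; a dot marks an adjusted p under 0.05. With CB-103 the strongest colours are in NT cells, from 2.53 for ISG20 to -2.41 for IFITM2, while the GSI columns stay pale.

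With CB-103, more genes with an exact match to an ISRE core near their start were called lower than higher. Among genes without an exact match, more were called higher than lower. Promoter windows of RefSeq (build GRCh38.p14), from 250 bases before to 50 bases after the start of the gene, matched 38 of the 48 genes by symbol, and 10 had no entry: IRF7, NLRC5, OAS2, OASL, IFIT2, MX2, TRIM22, IFITM2, USP18 and HLA-E. The ISRE core was searched on both strands as TTTC, then 2 bases of any kind, then TTTC, and was found for 27 of 38 genes (71.1%), against 4.38% of the 27305 genes with windows of the same length. The windows of PARP9 and DTX3L overlap and their matches are the same bases, so 1 site is counted for 2 genes. The core of the interferon-gamma element, TTC and GAA with 3 bases of any kind between them, was found for 12 of the 38 (31.6%), against 9.38% of all, and its match shared bases with an ISRE match in 5 genes. Shown here are the 250 bases before the start of 6 genes, 3 that rose and 3 that fell with CB-103 in both genotypes, with ISRE cores in capitals. The windows lie at chr12:112906712-112906961 (plus strand) for OAS1, chr15:88638766-88639015 (plus strand) for ISG20, chr6:31357180-31357429 (minus strand) for HLA-B, chr12:112938224-112938473 (plus strand) for OAS3, chr10:89392373-89392622 (plus strand) for IFIT1 and chr16:67936851-67937100 (minus strand) for PSMB10.
OAS1: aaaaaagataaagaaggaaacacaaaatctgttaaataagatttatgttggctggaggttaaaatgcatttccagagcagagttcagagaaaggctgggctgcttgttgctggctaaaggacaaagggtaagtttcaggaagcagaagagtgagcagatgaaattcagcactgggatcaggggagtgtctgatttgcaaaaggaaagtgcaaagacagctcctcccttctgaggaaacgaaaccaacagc
ISG20: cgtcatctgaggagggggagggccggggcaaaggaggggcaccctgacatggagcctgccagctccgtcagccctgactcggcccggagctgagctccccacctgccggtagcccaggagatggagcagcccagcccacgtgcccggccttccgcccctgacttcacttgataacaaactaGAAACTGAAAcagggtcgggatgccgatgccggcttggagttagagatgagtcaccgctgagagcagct
HLA-B: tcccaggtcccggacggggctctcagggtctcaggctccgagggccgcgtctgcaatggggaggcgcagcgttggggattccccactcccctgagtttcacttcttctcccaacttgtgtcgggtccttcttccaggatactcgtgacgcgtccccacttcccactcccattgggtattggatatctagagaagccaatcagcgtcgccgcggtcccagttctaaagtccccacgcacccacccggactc
OAS3: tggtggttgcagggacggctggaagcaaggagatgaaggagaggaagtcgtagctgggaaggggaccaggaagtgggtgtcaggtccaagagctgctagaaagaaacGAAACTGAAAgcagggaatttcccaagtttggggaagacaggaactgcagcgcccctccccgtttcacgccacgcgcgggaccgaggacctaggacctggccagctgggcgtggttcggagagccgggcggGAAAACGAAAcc
IFIT1: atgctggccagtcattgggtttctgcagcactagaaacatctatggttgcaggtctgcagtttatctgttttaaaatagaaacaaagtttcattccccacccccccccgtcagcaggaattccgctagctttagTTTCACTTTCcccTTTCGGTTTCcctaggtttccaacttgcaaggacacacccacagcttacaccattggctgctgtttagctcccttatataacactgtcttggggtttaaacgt
PSMB10: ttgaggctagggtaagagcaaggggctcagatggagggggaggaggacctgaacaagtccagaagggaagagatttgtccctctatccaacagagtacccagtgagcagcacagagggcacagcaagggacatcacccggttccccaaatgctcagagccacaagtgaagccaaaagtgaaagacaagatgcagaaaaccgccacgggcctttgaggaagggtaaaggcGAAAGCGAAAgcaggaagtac

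OAS3 holds the core 143 and 12 bases before its start, IFIT1 at 2 places, PSMB10 at 21 bases and ISG20 at 69 bases. These exact letters are not in the windows of OAS1 and HLA-B. Near matches were not counted, such as gaaacgaaa in the OAS1 and XAF1 windows, where fewer bases lie between the repeats. The HLA-B and HLA-C windows likewise hold tttcacttc, which was not counted. The genes without the core can therefore include some with an ISRE of other letters or spacing. A match is a stretch of letters and not a measured binding site.

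With CB-103 in KO cells, 14 of the 27 genes with the core fell, 3 rose and 10 were not called, and their median log2 fold change was -0.26. Of the 11 genes without it, 1 fell, 8 rose and 2 were not called, with a median of 0.68. In NT cells 19 of the 27 fell, 2 rose and 6 were not called, with a median of -0.56, and of the 11 without the core 1 fell, 8 rose and 2 were not called, with a median of 0.61. The exceptions in NT cells were ISG20 and IFI44, which have the core and rose, and IRF1, which lacks it and fell. Among genes outside the set the core went with no such split. Of 439 other genes with it, 29.6% were higher and 33.9% lower with CB-103 in NT cells (median 0.02), against 31.5% and 32.4% of 11143 genes without it (median 0.01). In KO cells 26.2% of the 439 were higher and 27.6% lower, against 28.0% and 26.9% of the 11143. All genes of the set were chosen by function, those with and without the core may differ in other features, and the split was not tested.

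**Figure D2:**
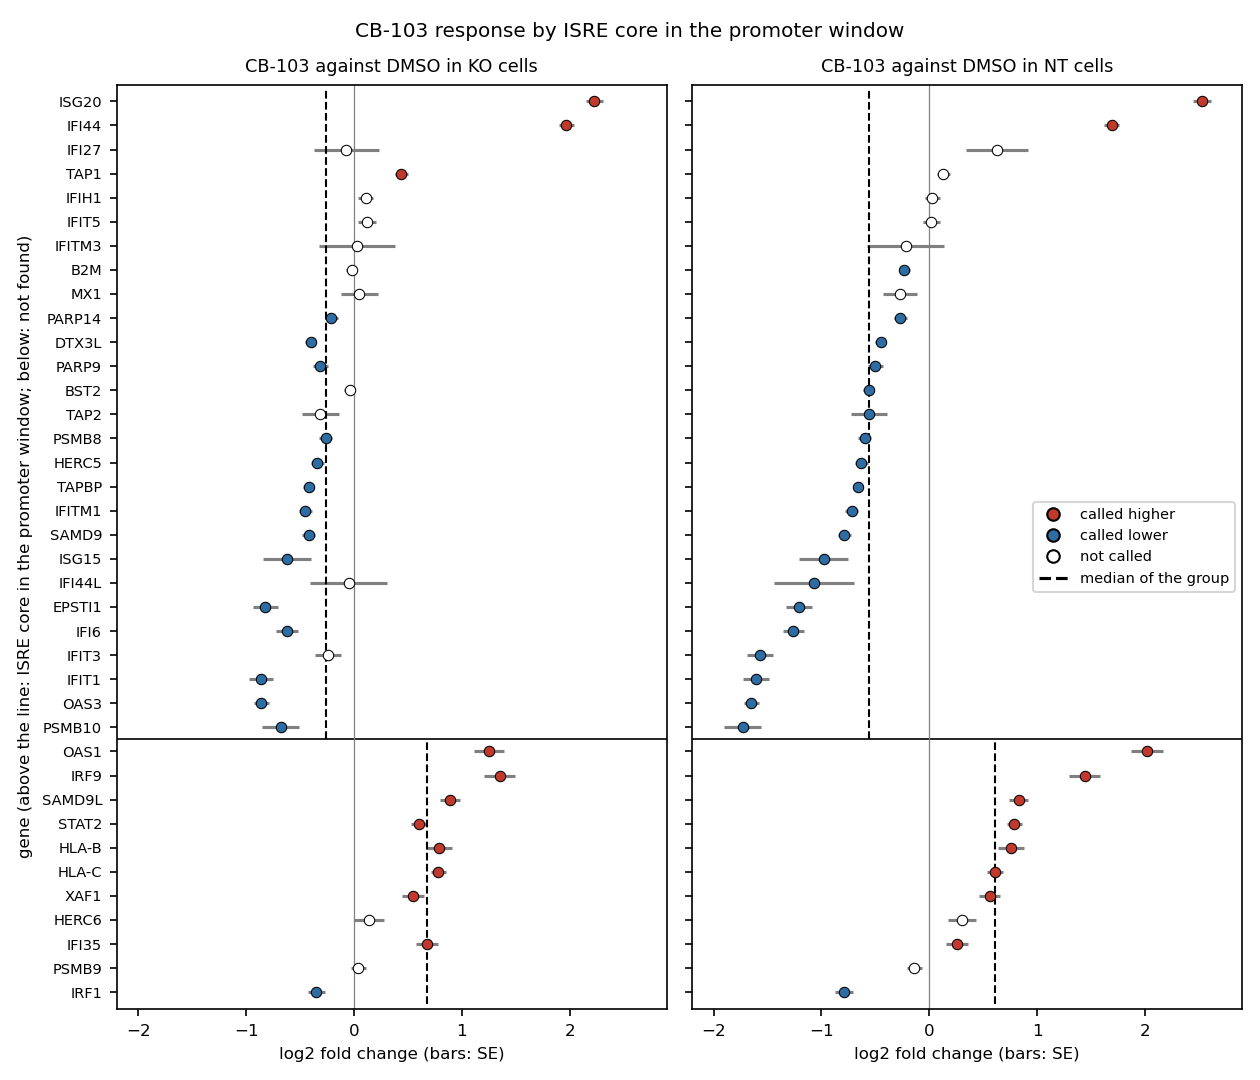
Log2 fold change of CB-103 over DMSO (points, bars SE) in KO and NT cells for the 38 genes with a promoter window. Genes with an exact match to the ISRE core lie above the line and those without it below. Dashed lines mark the medians. In NT cells the median is -0.56 with the core and 0.61 without it, and in KO cells -0.26 and 0.68.

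The transcription factors split. IRF9, STAT2 and IRF7 rose with CB-103 in both genotypes, while IRF1, the factor induced by interferon gamma, and NLRC5 fell. IRF9 (chr14:24161053-24166565, hg38), the DNA-binding part of the type I interferon complex, had 12.9, 11.7 and 11.6 CPM in KO cells given CB-103, 6.17, 7.83 and 6.80 given GSI and 4.93, 4.27 and 5.03 given DMSO. The NT libraries gave 22.0, 17.2 and 22.0 CPM under CB-103, 12.5, 10.7 and 9.64 under GSI and 8.70, 5.99 and 7.79 under DMSO. CB-103 libraries were above all others of their genotype, and each KO group lay below its NT counterpart. The CB-103 response was 1.35 ± 0.14, adjusted p = 4e-07 in KO and 1.44 ± 0.14, adjusted p = 6.7e-08 in NT cells, and the GSI response was 0.55 ± 0.15, adjusted p = 0.013 in KO and 0.54 ± 0.14, adjusted p = 0.0082 in NT cells. The GSI calls were lost in KO cells without KO DMSO replicate 2 (adjusted p = 0.053, at 0.50) or KO GSI replicate 2 (adjusted p = 0.074, at 0.45) and in NT cells without NT DMSO replicate 2 (adjusted p = 0.052, at 0.41) or NT GSI replicate 1 (adjusted p = 0.053, at 0.43). STAT2 (chr12:56341597-56360155), the partner of IRF9, had 75.2, 77.6 and 74.9 CPM in KO cells given CB-103, 54.7, 57.6 and 52.2 given GSI and 51.1, 52.7 and 46.0 given DMSO. STAT2 in NT cells stood at 76.4, 83.9 and 82.6 CPM when given CB-103, 62.5, 56.7 and 63.8 when given GSI and 45.8, 43.4 and 51.0 when given DMSO. Its CB-103 response was 0.60 ± 0.07, adjusted p = 6.7e-07 in KO and 0.79 ± 0.07, adjusted p = 1.3e-08 in NT cells, and with GSI it was called in NT cells only (0.38 ± 0.07, adjusted p = 0.00041; KO cells 0.14 ± 0.07, adjusted p = 0.19). IRF7 (chr11:612553-615999), which drives interferon-alpha genes after infection, had 7.46, 8.86 and 8.14 CPM in KO cells given CB-103, 4.59, 4.48 and 4.09 given GSI and 3.84, 5.58 and 4.03 given DMSO. Levels of IRF7 in NT cells were 7.86, 10.96 and 12.00 CPM after CB-103, 6.18, 6.53 and 7.28 after GSI and 4.82, 5.06 and 5.47 after DMSO. The CB-103 response was 0.86 ± 0.16, adjusted p = 0.00017 in KO and 1.00 ± 0.15, adjusted p = 2.1e-05 in NT cells, without overlap of the groups, and GSI gave no call.

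NLRC5 went in opposite directions with the inhibitors. NLRC5 (chr16:56989485-57083531) had 6.56, 10.6 and 7.88 CPM in KO cells given CB-103, 22.9, 28.1 and 29.8 given GSI and 18.6, 22.1 and 17.7 given DMSO. NT cells had 7.29, 7.74 and 5.10 CPM of NLRC5 with CB-103, against 35.7, 32.4 and 36.3 with GSI and 18.6, 23.2 and 24.2 with DMSO. In each genotype the GSI libraries were the highest and the CB-103 libraries the lowest, with no overlap. The CB-103 response was -1.22 ± 0.17, adjusted p = 8.5e-06 in KO and -1.71 ± 0.17, adjusted p = 9.8e-08 in NT cells. With GSI it was 0.47 ± 0.16, adjusted p = 0.045 in KO and 0.66 ± 0.16, adjusted p = 0.0046 in NT cells. The GSI call in KO cells was lost without any 1 of KO DMSO replicate 1, KO DMSO replicate 3, KO GSI replicate 2 and KO GSI replicate 3 (0.39 to 0.44, adjusted p 0.12 to 0.17), and with library totals as the scale (0.45, adjusted p = 0.074). Set against each other, CB-103 over GSI gave -1.69 ± 0.17, adjusted p = 1.7e-07 in KO and -2.37 ± 0.17, adjusted p = 1.3e-09 in NT cells. IRF1 (chr5:132481609-132490798) fell with both. It had 40.8, 43.5 and 39.1 CPM in KO cells given CB-103, 34.3, 34.5 and 29.9 given GSI and 48.2, 50.3 and 59.0 given DMSO. The NT libraries gave 35.4, 30.3 and 29.3 CPM under CB-103, 35.6, 36.6 and 35.3 under GSI and 55.6, 57.2 and 52.4 under DMSO. DMSO libraries were above all inhibitor libraries of their genotype. With CB-103 the change was -0.35 ± 0.08, adjusted p = 0.0015 in KO and -0.79 ± 0.08, adjusted p = 1.7e-07 in NT cells, and with GSI -0.67 ± 0.08, adjusted p = 1.5e-05 in KO and -0.62 ± 0.08, adjusted p = 2.2e-05 in NT cells.

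Among genes that sense or degrade RNA, ISG20 and OAS1 rose with CB-103 while OAS2 and OAS3 fell, although the 3 OAS genes are neighbours on chromosome 12. ISG20 (chr15:88636153-88656483), an exonuclease of single-stranded RNA, had 57.7, 53.8 and 58.8 CPM in KO cells given CB-103, 13.8, 14.2 and 15.9 given GSI and 13.1, 12.01 and 11.2 given DMSO. ISG20 in NT cells stood at 72.4, 66.6 and 71.9 CPM when given CB-103, 11.8, 13.3 and 10.8 when given GSI and 11.98, 11.4 and 12.9 when given DMSO. It stood apart in every CB-103 library and gave the largest increase of the 47 genes in both genotypes, 2.23 ± 0.08, adjusted p = 2.6e-13 in KO and 2.53 ± 0.08, adjusted p = 2.8e-14 in NT cells. OAS1 (chr12:112906777-112933222), which makes the 2-5A messenger that activates RNase L, had 11.8, 9.54 and 9.84 CPM in KO cells given CB-103, 5.01, 4.68 and 4.53 given GSI and 5.50, 3.74 and 3.92 given DMSO. Levels of OAS1 in NT cells were 7.86, 7.55 and 7.95 CPM after CB-103, 2.58, 2.76 and 2.13 after GSI and 1.83, 1.82 and 2.09 after DMSO. CB-103 raised it to the highest levels in both genotypes (1.25 ± 0.14, adjusted p = 7.7e-07 in KO and 2.02 ± 0.15, adjusted p = 2e-09 in NT cells), and the KO libraries given DMSO were above the NT libraries given DMSO. OAS3 (chr12:112938352-112973249) had 40.7, 39.7 and 37.3 CPM in KO cells given CB-103, 66.7, 61.9 and 60.3 given GSI and 75.9, 69.5 and 68.6 given DMSO. NT cells had 24.8, 20.1 and 21.2 CPM of OAS3 with CB-103, against 58.3, 58.1 and 55.5 with GSI and 68.5, 70.7 and 69.1 with DMSO. The CB-103 libraries were the lowest of each genotype, and lower in NT than in KO cells (-0.86 ± 0.07, adjusted p = 6e-09 in KO and -1.65 ± 0.07, adjusted p = 8.9e-13 in NT cells). OAS2 fell by 1.08 ± 0.19 in NT cells (adjusted p = 7.8e-05). In KO cells its change was -0.63 ± 0.19, adjusted p = 0.011, a call lost without KO DMSO replicate 2 (adjusted p = 0.08, at -0.43). IFIH1, the sensor MDA5, was not called with either inhibitor.

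The IFIT genes, which bind foreign RNA, lie together on chromosome 10 and fell mainly in NT cells. IFIT1 (chr10:89392546-89406486) had 5.67, 5.60 and 6.53 CPM in KO cells given CB-103, 13.7, 12.7 and 12.8 given GSI and 11.8, 10.2 and 10.4 given DMSO. The NT libraries gave 5.08, 3.66 and 3.82 CPM under CB-103, 14.8, 12.8 and 13.1 under GSI and 13.2, 13.4 and 11.99 under DMSO. CB-103 libraries lay below all others, with changes of -0.86 ± 0.11, adjusted p = 5e-06 in KO and -1.61 ± 0.12, adjusted p = 1.4e-09 in NT cells. IFIT3 (chr10:89327894-89340971) had 7.97, 8.42 and 9.17 CPM in KO cells given CB-103, 8.64, 9.51 and 11.2 given GSI and 10.00, 10.1 and 10.1 given DMSO. IFIT3 in NT cells stood at 4.29, 3.73 and 3.06 CPM when given CB-103, 8.26, 8.13 and 7.56 when given GSI and 12.04, 10.7 and 10.2 when given DMSO. The NT libraries given CB-103 stood apart below all 15 others (-1.57 ± 0.12, adjusted p = 3.6e-09), while in KO cells the gene was not called (-0.24 ± 0.12, adjusted p = 0.1). IFIT2 was higher with CB-103 in KO cells (0.41 ± 0.10, adjusted p = 0.0022), against -0.24 ± 0.10, adjusted p = 0.048 in NT cells, where the call was lost without any 1 of NT DMSO replicate 1, NT DMSO replicate 2, NT DMSO replicate 3, NT CB-103 replicate 2 and NT CB-103 replicate 3 (-0.25 to -0.18, adjusted p 0.078 to 0.17) and with library totals or no count filter. IFIT5 was not called with CB-103. IFIT1, IFIT2 and IFIT3 overlap the opposite strand of LIPA, which had more reads than any of them; the library kit kept the strand, per the labels, and the sources used here do not give the strand setting of the counting.

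Restriction factors, proteins that block steps of viral entry or replication, also divided. MX2 (chr21:41361943-41409390), which acts against the nuclear import of retroviral genomes, rose with CB-103 and fell with GSI in both genotypes. It had 169.6, 155 and 163 CPM in KO cells given CB-103, 71.0, 69.2 and 73.7 given GSI and 81.5, 85.3 and 85.0 given DMSO. Levels of MX2 in NT cells were 170.3, 167 and 163 CPM after CB-103, 60.4, 61.0 and 62.8 after GSI and 90.8, 91.2 and 89.0 after DMSO. The 3 treatments did not overlap within a genotype. The CB-103 response was 0.95 ± 0.04, adjusted p = 3.8e-12 in KO and 0.88 ± 0.04, adjusted p = 5e-12 in NT cells, and the GSI response -0.24 ± 0.04, adjusted p = 0.00071 in KO and -0.56 ± 0.04, adjusted p = 3.3e-08 in NT cells. IFITM2 (chr11:307631-315272), which hinders membrane fusion, fell most of all 47 genes. It had 8.75, 10.1 and 10.8 CPM in KO cells given CB-103, 24.6, 24.5 and 25.5 given GSI and 22.6, 24.6 and 23.3 given DMSO. NT cells had 4.08, 3.92 and 3.70 CPM of IFITM2 with CB-103, against 14.1, 16.6 and 16.9 with GSI and 20.7, 21.5 and 20.3 with DMSO. CB-103 libraries were below all others, and the NT ones the lowest. Its changes with CB-103 were -1.25 ± 0.08, adjusted p = 7.2e-10 in KO and -2.41 ± 0.09, adjusted p = 1.9e-13 in NT cells. The neighbour IFITM1 changed by -0.45 ± 0.06, adjusted p = 8e-06 in KO and -0.72 ± 0.06, adjusted p = 1.3e-08 in NT cells. The annotated spans of IFITM1 and IFITM2 overlap on 1 strand, so the split of reads between them is uncertain. The neighbours SAMD9 and SAMD9L, growth-restraining antiviral factors, moved apart. SAMD9 fell by 0.42 ± 0.06 in KO and 0.79 ± 0.06 in NT cells, while SAMD9L rose by 0.89 ± 0.09 in KO and 0.83 ± 0.09 in NT cells. BST2, the tether of budding virions, was at 116 ± 7.17 CPM in KO cells given CB-103, against 119 ± 2.89 CPM given DMSO (SD, n = 3 each; -0.04 ± 0.05, adjusted p = 0.5). In NT cells it fell to 79.2 ± 2.94 CPM with CB-103, against 117 ± 2.88 CPM with DMSO (-0.56 ± 0.05, adjusted p = 1.9e-08). TRIM22, MX1 and IFITM3 were not called with either inhibitor.

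In the ISG15 system, in which a ubiquitin-like protein is attached to others, the modifier and its ligase fell with CB-103. ISG15 (chr1:1001138-1014540) had 25.3, 31.7 and 35.3 CPM in KO cells given CB-103, 23.9, 33.3 and 38.7 given GSI and 35.2, 53.4 and 53.4 given DMSO. The NT libraries gave 16.9, 23.3 and 25.1 CPM under CB-103, 23.6, 36.0 and 31.6 under GSI and 31.7, 54.3 and 42.5 under DMSO. In every one of the 6 groups replicate 1 was the lowest library, so the spread was wide. The CB-103 change was -0.62 ± 0.22, adjusted p = 0.028 in KO and -0.98 ± 0.23, adjusted p = 0.0012 in NT cells, and the KO call was lost without any 1 of KO DMSO replicate 2, KO DMSO replicate 3, KO CB-103 replicate 1 and KO CB-103 replicate 2 (-0.66 to -0.51, adjusted p 0.052 to 0.11). With GSI the changes were -0.57 ± 0.22, adjusted p = 0.089 in KO and -0.50 ± 0.22, adjusted p = 0.12 in NT cells, not called. HERC5, the ISG15 ligase, changed by -0.34 ± 0.06, adjusted p = 8e-05 in KO and -0.63 ± 0.06, adjusted p = 3e-08 in NT cells with CB-103, and by 0.10 in KO and -0.03 in NT cells with GSI, not called. USP18, which removes ISG15, was not called in KO cells (-0.02 ± 0.08, adjusted p = 0.88) and stood at -0.23 ± 0.08, adjusted p = 0.016 in NT cells, a call lost without NT DMSO replicate 1 (adjusted p = 0.056, at -0.21), NT CB-103 replicate 2 (adjusted p = 0.084, at -0.17) or NT CB-103 replicate 3 (adjusted p = 0.064, at -0.19). HERC6 was not called with either inhibitor. PARP9, PARP14 and DTX3L, which act in ADP-ribosylation and flank each other on chromosome 3, were all called lower with CB-103 in both genotypes, with changes of -0.31, -0.21 and -0.40 in KO cells and -0.50, -0.27 and -0.45 in NT cells. PARP9 overlaps DTX3L on the opposite strand, and DTX3L had more reads.

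Other interferon-induced genes included 1 of the largest increases and a large decrease. IFI44 (chr1:78649796-78664078), a cytoplasmic protein of the antiviral response, had 83.7, 85.3 and 82.7 CPM in KO cells given CB-103, 21.0, 23.8 and 23.5 given GSI and 22.7, 20.9 and 20.9 given DMSO. IFI44 in NT cells stood at 77.6, 72.7 and 74.3 CPM when given CB-103, 27.2, 22.0 and 22.2 when given GSI and 21.9, 24.0 and 23.8 when given DMSO. CB-103 libraries were above all others, with changes of 1.97 ± 0.07, adjusted p = 4.5e-13 in KO and 1.69 ± 0.07, adjusted p = 1.6e-12 in NT cells. IFI6 (chr1:27666061-27672218), a small membrane protein that restrains flaviviruses, had 21.5, 26.5 and 21.9 CPM in KO cells given CB-103, 27.6, 29.4 and 28.6 given GSI and 33.1, 34.2 and 40.3 given DMSO. Levels of IFI6 in NT cells were 13.2, 10.6 and 10.4 CPM after CB-103, 25.8, 28.0 and 24.9 after GSI and 28.5, 27.8 and 26.0 after DMSO. Its CB-103 change was -0.62 ± 0.10, adjusted p = 3.5e-05 in KO and -1.26 ± 0.10, adjusted p = 5.9e-09 in NT cells, and the NT libraries given CB-103 were below all 15 others. With GSI it was -0.33 ± 0.10, adjusted p = 0.023 in KO cells, a call lost without KO DMSO replicate 3 (adjusted p = 0.18, at -0.21), KO GSI replicate 1 (adjusted p = 0.073, at -0.30) or KO GSI replicate 3 (adjusted p = 0.061, at -0.33), and -0.06 ± 0.10, adjusted p = 0.68 in NT cells. EPSTI1 fell with CB-103 (-0.82 ± 0.12 in KO and -1.21 ± 0.12 in NT cells). XAF1, which opposes the apoptosis inhibitor XIAP, rose with CB-103 (0.55 ± 0.10, adjusted p = 0.00013 in KO and 0.56 ± 0.10, adjusted p = 6.7e-05 in NT cells). With GSI XAF1 stood at -0.40 ± 0.10, adjusted p = 0.0089 in KO cells, a call lost without KO DMSO replicate 3 (adjusted p = 0.098, at -0.25). IFI35 was higher with CB-103 in KO cells (0.68 ± 0.10, adjusted p = 1.5e-05), against 0.26 ± 0.10, adjusted p = 0.033 in NT cells, a call lost without any 1 of NT DMSO replicate 1, NT DMSO replicate 2, NT CB-103 replicate 1 and NT CB-103 replicate 2 (0.20 to 0.25, adjusted p 0.073 to 0.12). This NT call was also lost with DESeq2 (adjusted p = 0.085, at 0.22) or its size factors in edgeR (adjusted p = 0.058, at 0.22). So it was with no count filter (adjusted p = 0.2, at 0.25) or replicates 2 and 3 alone (adjusted p = 0.13, at 0.24). The neighbour of IFI44, IFI44L, was between 1.34 and 4.55 CPM and moved the other way in NT cells (-1.07 ± 0.37, adjusted p = 0.021), a call lost without NT CB-103 replicate 1 (adjusted p = 0.07, at -0.97) or NT CB-103 replicate 3 (adjusted p = 0.053, at -1.05).

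Of the class I molecules, the classical heavy chains HLA-B and HLA-C rose with CB-103 in both genotypes, although their activator NLRC5 fell, and HLA-E and B2M did not rise. HLA-B (chr6:31269491-31357188) had 220.1, 241 and 264 CPM in KO cells given CB-103, 129, 160.0 and 159.6 given GSI and 119.9, 152 and 147 given DMSO. NT cells had 302, 345 and 358 CPM of HLA-B with CB-103, against 196, 252 and 248 with GSI and 172, 212 and 208 with DMSO. CB-103 libraries were the highest of each genotype, and each KO group was below its NT counterpart. The CB-103 response was 0.79 ± 0.12, adjusted p = 2.5e-05 in KO and 0.76 ± 0.12, adjusted p = 2.3e-05 in NT cells, against 0.10 ± 0.12, adjusted p = 0.65 in KO and 0.23 ± 0.12, adjusted p = 0.17 in NT cells with GSI, not called. HLA-C (chr6:31268749-31272130) had 319, 329.6 and 351 CPM in KO cells given CB-103, 205, 202 and 222 given GSI and 183, 199 and 199 given DMSO. The NT libraries gave 371, 390.5 and 405 CPM under CB-103, 252, 305 and 293 under GSI and 238, 272 and 257 under DMSO. It showed CB-103 as the highest treatment in both genotypes too, with CB-103 responses of 0.78 ± 0.07, adjusted p = 4.1e-08 in KO and 0.61 ± 0.07, adjusted p = 5.9e-07 in NT cells. HLA-B and HLA-C are near-identical and their annotated spans overlap on 1 strand, so reads may be shared between them. HLA-E (chr6:30489467-30494205), a nonclassical chain read by natural killer cells, had 137, 132 and 144 CPM in KO cells given CB-103, 186, 188 and 189.8 given GSI and 141, 139.7 and 141 given DMSO. HLA-E in NT cells stood at 124, 129 and 119 CPM when given CB-103, 208, 213 and 218 when given GSI and 171, 170.0 and 180.3 when given DMSO. GSI libraries were the highest of each genotype (0.42 ± 0.04, adjusted p = 1.7e-06 in KO and 0.29 ± 0.04, adjusted p = 6.3e-05 in NT cells). With CB-103 HLA-E changed by -0.49 ± 0.04, adjusted p = 2e-08 in NT cells, and in KO cells it was not called (-0.03 ± 0.04, adjusted p = 0.64). B2M (chr15:44711487-44718877) had 708, 633 and 731 CPM in KO cells given CB-103, 823, 822 and 859 given GSI and 735, 681 and 689.6 given DMSO. Levels of B2M in NT cells were 633, 593 and 600.2 CPM after CB-103, 746, 805 and 773 after GSI and 718, 715 and 709 after DMSO. With CB-103 it was not called in KO cells (-0.02 ± 0.05, adjusted p = 0.75) and was lower in NT cells (-0.23 ± 0.05, adjusted p = 0.0011), and GSI raised it in KO cells (0.25 ± 0.05, adjusted p = 0.0026).

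With CB-103 the peptide transport and loading genes divided in KO cells, where TAP1 rose and TAPBP fell, while in NT cells TAPBP and TAP2 were called lower and TAP1 was not called. TAP1 (chr6:32845209-32853978), a subunit of the transporter, had 60.3, 63.8 and 65.1 CPM in KO cells given CB-103, 59.8, 60.9 and 62.3 given GSI and 44.8, 46.9 and 47.5 given DMSO. NT cells had 64.2, 62.7 and 53.6 CPM of TAP1 with CB-103, against 59.4, 66.0 and 62.7 with GSI and 53.6, 54.5 and 56.7 with DMSO. In KO cells CB-103 and GSI libraries were above those given DMSO (0.44 ± 0.06, adjusted p = 9.3e-06 with CB-103 and 0.39 ± 0.06, adjusted p = 0.00019 with GSI). In NT cells the CB-103 change was 0.13 ± 0.06, adjusted p = 0.075, not called, and the GSI change was 0.19 ± 0.06, adjusted p = 0.03, a call lost without any 1 of NT DMSO replicate 1, NT DMSO replicate 2, NT GSI replicate 2 and NT GSI replicate 3 (0.13 to 0.19, adjusted p 0.073 to 0.15). TAPBP, tapasin, which bridges the transporter and the heavy chain, fell with CB-103 (-0.42 ± 0.05, adjusted p = 4.8e-07 in KO and -0.66 ± 0.05, adjusted p = 8.3e-10 in NT cells). TAP2, the other transporter subunit, stood at -0.31 ± 0.17, adjusted p = 0.16 in KO cells, and at -0.56 ± 0.17, adjusted p = 0.011 in NT cells, a call lost without NT DMSO replicate 1 (adjusted p = 0.061, at -0.44) or NT CB-103 replicate 3 (adjusted p = 0.055, at -0.46).

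The immunoproteasome subunits stood lower relative to their constitutive partners with CB-103. PSMB10 (chr16:67934502-67937087) had 17.4, 16.1 and 14.7 CPM in KO cells given CB-103, 33.5, 24.6 and 21.1 given GSI and 29.3, 25.4 and 22.4 given DMSO. The NT libraries gave 10.4, 9.18 and 11.2 CPM under CB-103, 23.3, 24.2 and 20.4 under GSI and 43.2, 29.2 and 29.9 under DMSO. CB-103 libraries were below all others of their genotype (-0.68 ± 0.17, adjusted p = 0.0023 in KO and -1.73 ± 0.17, adjusted p = 8.2e-08 in NT cells). With GSI it changed by -0.59 ± 0.16, adjusted p = 0.012 in NT cells, a call lost without NT DMSO replicate 1 (adjusted p = 0.09, at -0.39) or NT GSI replicate 3 (adjusted p = 0.063, at -0.53), and in KO cells it was not called (0.04 ± 0.16, adjusted p = 0.91). PSMB8 changed by -0.26 ± 0.06, adjusted p = 0.0015 in KO and -0.60 ± 0.06, adjusted p = 1.3e-07 in NT cells with CB-103, and rose with GSI in KO cells (0.29 ± 0.06, adjusted p = 0.0023). PSMB9 (chr6:32844136-32859585) had 32.4, 31.2 and 33.2 CPM in KO cells given CB-103, 41.0, 37.7 and 37.6 given GSI and 33.0, 29.99 and 31.1 given DMSO. PSMB9 in NT cells stood at 27.4, 26.9 and 24.8 CPM when given CB-103, 29.6, 32.4 and 27.6 when given GSI and 32.0, 27.4 and 27.9 when given DMSO. It was not called with CB-103 in KO (0.04 ± 0.07, adjusted p = 0.68) or NT cells (-0.14 ± 0.07, adjusted p = 0.1), and was called higher with GSI in KO cells (0.31 ± 0.07, adjusted p = 0.0052). PSMB9 overlaps PSMB8 and TAP1 on the opposite strand, and both had more reads. The constitutive subunits PSMB5, PSMB6 and PSMB7 all rose with CB-103, with log2 fold changes of 0.57, 0.95 and 0.89 in KO and 0.20, 0.66 and 0.60 in NT cells.

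As ratios of TPM, each inducible subunit was lower against the one it replaces in every CB-103 library than in any DMSO library of the same genotype. PSMB8 over PSMB5 was 0.643, 0.711 and 0.729 in KO cells given CB-103, against 1.26, 1.22 and 1.24 given DMSO (log2 difference -0.84). In NT cells it was 0.573, 0.604 and 0.628 with CB-103, against 1.01, 1.06 and 1.07 with DMSO (log2 difference -0.80). With GSI the ratio went the other way, to 1.52, 1.57 and 1.64 in KO and 1.13, 1.27 and 1.27 in NT cells. PSMB10 over PSMB7 was 0.045, 0.0434 and 0.0372 in KO cells given CB-103, against 0.132, 0.13 and 0.111 given DMSO (log2 difference -1.57). In NT cells it was 0.0317, 0.0307 and 0.0364 with CB-103, against 0.199, 0.145 and 0.15 with DMSO (log2 difference -2.31). PSMB9 over PSMB6 differed by -0.90 in KO and -0.80 in NT cells on the log2 scale. None of these 6 CB-103 contrasts overlapped between groups, and each gave a 2-sided exact permutation p = 0.1, the smallest that 3 against 3 libraries allow.

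**Figure D3:**
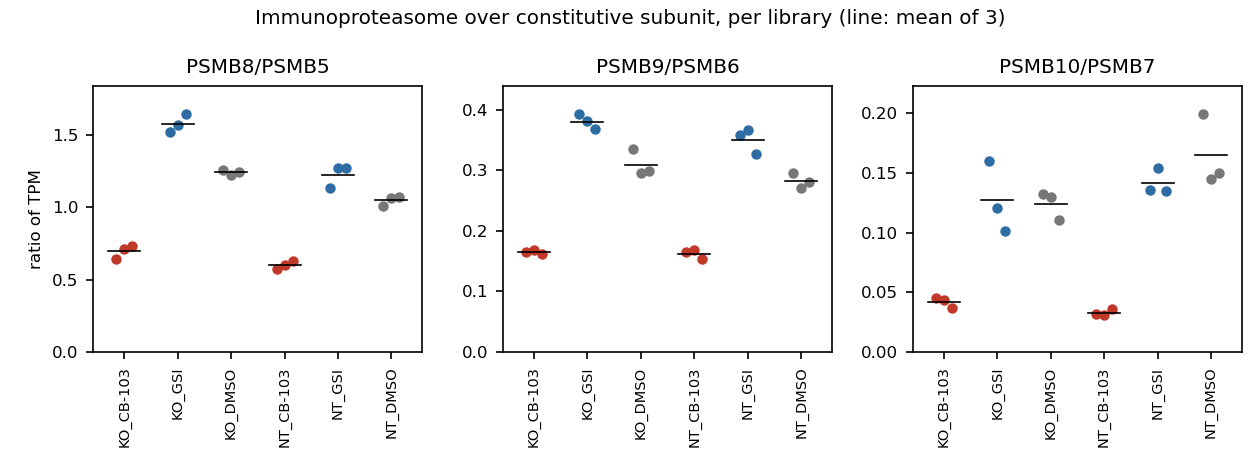
Ratio of TPM of each inducible proteasome subunit to the constitutive subunit it replaces, in each of the 18 libraries (points), KO groups left of NT groups. All 3 ratios are lowest in the CB-103 libraries, and PSMB8 over PSMB5 is highest with GSI within each genotype.

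The response to CB-103 differed between genotypes for 17 of 47 genes (36.2%, against 14.6% of all genes tested), by the interaction term, KO response minus NT response. For 16 of the 17 the difference was positive (10.3% of all genes) and for 1 negative (4.34%). A positive sign was also the commoner sign among all called genes (94.1% of the called genes in the set, 70.3% of all called genes). Scaled to library totals instead, 14 genes of the set were called, 12 positive and 2 negative. On that scale 1242 of all genes were called positive and 1404 negative, so the commoner sign among all genes depended on the scaling. The largest was IFIT3, with -0.24 in KO and -1.57 in NT cells, a difference of 1.33 ± 0.17, adjusted p = 5.6e-05. IFITM2 stood at -1.25 in KO and -2.41 in NT cells, a difference of 1.16 ± 0.12, adjusted p = 1.1e-05. PSMB10 stood at -0.68 in KO and -1.73 in NT cells, a difference of 1.05 ± 0.24, adjusted p = 0.0058. These decreases were all larger in NT cells. OAS3 changed by -0.86 in KO and -1.65 in NT cells, a difference of 0.79 ± 0.10, adjusted p = 3.8e-05, and IFIT1 by -0.86 in KO and -1.61 in NT cells, a difference of 0.75 ± 0.16, adjusted p = 0.0046. For IFI6 the responses were -0.62 in KO and -1.26 in NT cells, a difference of 0.64 ± 0.14, adjusted p = 0.0047. BST2 (0.52 ± 0.07) and HLA-E (0.46 ± 0.06) fell in NT cells alone, and IFIT2 (0.65 ± 0.14) had responses of opposite sign. OAS1 was the single gene called with a negative difference, since it rose more in NT cells (1.25 in KO and 2.02 in NT cells, a difference of -0.77 ± 0.20, adjusted p = 0.016). That call was lost when replicates 2 and 3 alone were used (-0.62, adjusted p = 0.071). ISG20 was also called negative with library totals (-0.39, adjusted p = 0.021) and with gene sums of the transcript estimates (-0.40, adjusted p = 0.02). SAMD9 (0.38) and IRF1 (0.44) also fell more in NT cells, and the IRF1 call was lost without NT CB-103 replicate 3 (adjusted p = 0.055, at 0.39). The remaining calls, for HERC5, IFITM1, PSMB8, TAP1 and TAPBP, were small (0.24 to 0.34) and each was lost without at least 1 library.

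**Figure D4:**
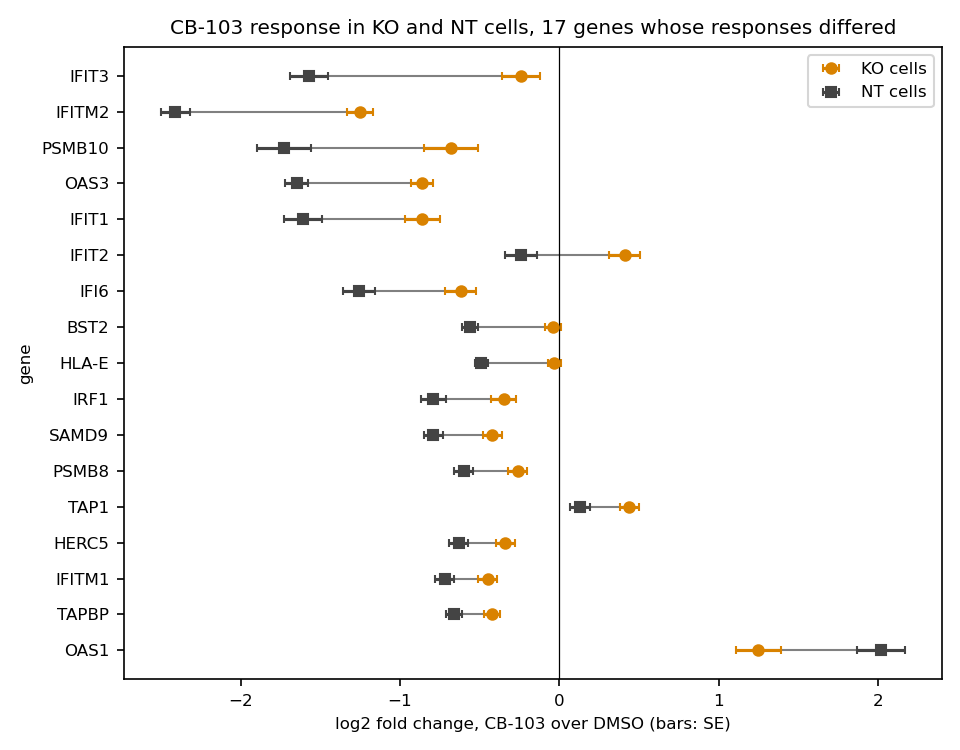
Log2 fold change of CB-103 over DMSO (bars SE) in KO cells (orange circles) and NT cells (grey squares) for the 17 genes whose response differed by genotype, ordered by the difference. All but OAS1 lie further right in KO cells, IFIT3 by 1.33.

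With GSI the genotypes differed for 4 of 47 genes (8.51%, against 2.79% of all genes), all positive (2.1% of all genes were positive and 0.692% negative). These were IFITM2 (0.47 ± 0.11, adjusted p = 0.038), IFITM1 (0.43 ± 0.09, adjusted p = 0.021), PSMB8 (0.37 ± 0.09, adjusted p = 0.034) and MX2 (0.32 ± 0.06, adjusted p = 0.016). No call is left with library totals as the scale or with replicates 2 and 3 alone. The IFITM1 call was lost without NT DMSO replicate 1 (adjusted p = 0.056, at 0.43), KO GSI replicate 2 (adjusted p = 0.05, at 0.42) or KO GSI replicate 3 (adjusted p = 0.06, at 0.39), and that of MX2 without NT DMSO replicate 1 (adjusted p = 0.05, at 0.32) or KO GSI replicate 3 (adjusted p = 0.052, at 0.30). The IFITM2 call was lost without any 1 of NT DMSO replicate 1, NT DMSO replicate 2, NT DMSO replicate 3, NT GSI replicate 1, KO DMSO replicate 1, KO GSI replicate 1, KO GSI replicate 2 and KO GSI replicate 3 (0.39 to 0.49, adjusted p 0.05 to 0.094). The PSMB8 call was lost without any 1 of NT DMSO replicate 1, NT DMSO replicate 2, NT DMSO replicate 3, NT GSI replicate 1, NT GSI replicate 3, KO DMSO replicate 1, KO DMSO replicate 2, KO GSI replicate 2 and KO GSI replicate 3 (0.33 to 0.41, adjusted p 0.051 to 0.089).

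Under DMSO, most of the genes called between genotypes were lower in KO cells. Of 47 genes 17 were called (36.2%, against 21.4% of all genes), 2 higher (9.78% of all genes) and 15 lower (11.7%) in KO cells. Under GSI 22 were called (46.8%, against 33.8%), 8 higher (18.8% of all genes) and 14 lower (15%). Under CB-103, where PIK3R1 itself was not called, 30 were called (63.8%, against 37%), 19 higher (20.4% of all genes) and 11 lower (16.5%). The median log2 fold change was -0.13 under DMSO, -0.05 under GSI and 0.16 under CB-103.

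TRIM22, IRF9, HLA-B and HERC6 were among the genes lower in KO cells under all 3 treatments. Mean levels of other genes were lower there too, IFIH1, XAF1 and DTX3L among them. Given DMSO, mean IFIH1 was 14.2 CPM in KO and 18.1 in NT cells. XAF1 had 23.6 in KO and 29.1 in NT cells, and DTX3L 67.5 in KO and 77.0 in NT cells. TRIM22 (chr11:5689689-5737089), a RING-finger restriction factor, had 3.48, 3.55 and 3.16 CPM in KO and 6.86, 7.84 and 6.79 in NT cells given CB-103. It had 3.79, 1.65 and 1.70 CPM in KO and 5.86, 5.49 and 5.17 in NT cells given GSI, and 3.38, 1.91 and 2.58 CPM in KO and 7.50, 6.17 and 6.501 in NT cells given DMSO. It gave the largest decrease of the set in each, -1.07 ± 0.24, adjusted p = 0.0018 under CB-103, -1.21 ± 0.25, adjusted p = 0.0011 under GSI and -1.36 ± 0.24, adjusted p = 0.00046 under DMSO. TRIM22 overlaps TRIM5 on the opposite strand, which had more reads. IRF9 changed by -0.75 ± 0.14, adjusted p = 0.00028 under CB-103, -0.66 ± 0.14, adjusted p = 0.0017 under GSI and -0.66 ± 0.15, adjusted p = 0.0028 under DMSO. HLA-B changed by -0.47 ± 0.12, adjusted p = 0.0046 under CB-103, -0.63 ± 0.12, adjusted p = 0.00056 under GSI and -0.50 ± 0.12, adjusted p = 0.0056 under DMSO. HLA-C was lower under GSI (-0.44 ± 0.07, adjusted p = 0.00013) and DMSO (-0.40 ± 0.07, adjusted p = 0.0004). Under CB-103 it stood at -0.22 ± 0.07, adjusted p = 0.017, a call lost without NT CB-103 replicate 3 (adjusted p = 0.058, at -0.21) or KO CB-103 replicate 1 (adjusted p = 0.052, at -0.21) and with gene sums of the transcript estimates (-0.13, adjusted p = 0.24). HLA-E was lower in KO cells under GSI (-0.18 ± 0.04, adjusted p = 0.0035) and DMSO (-0.31 ± 0.04, adjusted p = 3.9e-05). Under CB-103 it was higher (0.15 ± 0.04, adjusted p = 0.011), a call lost without NT CB-103 replicate 3 (adjusted p = 0.1, at 0.11) or KO CB-103 replicate 3 (adjusted p = 0.12, at 0.10). HERC6, of the family of the ISG15 ligase, stood at -0.68 under CB-103, -0.69 under GSI and -0.52 under DMSO; the DMSO call was lost with replicates 2 and 3 alone (-0.50, adjusted p = 0.1). OAS2 was called lower under DMSO (-0.56 ± 0.18, adjusted p = 0.038), a call lost without any 1 of NT DMSO replicate 1, NT DMSO replicate 2, NT DMSO replicate 3, KO DMSO replicate 1 and KO DMSO replicate 3 (-0.57 to -0.41, adjusted p 0.078 to 0.16).

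Other genes were higher in KO cells, 19 of 47 under CB-103 (20.4% of all genes), 8 under GSI (18.8%) and 2 under DMSO (9.78%). OAS1 was higher under GSI (0.93 ± 0.15, adjusted p = 0.00012) and DMSO (1.19 ± 0.15, adjusted p = 1.5e-05), in every KO library against every NT library. Under CB-103 its difference was 0.42 ± 0.14, adjusted p = 0.024, a call lost without NT CB-103 replicate 2 (adjusted p = 0.089, at 0.38), NT CB-103 replicate 3 (adjusted p = 0.061, at 0.42) or KO CB-103 replicate 1 (adjusted p = 0.16, at 0.29). IFI6 stood at 0.39 ± 0.10, adjusted p = 0.0071 under DMSO, a call lost without KO DMSO replicate 3 (adjusted p = 0.06, at 0.28). Under CB-103 the genes highest in KO cells were IFITM2 (1.34 ± 0.09, adjusted p = 7.3e-09), IFIT3 (1.20 ± 0.12, adjusted p = 7.1e-07) and IFI6 (1.03 ± 0.10, adjusted p = 5.6e-07), those that CB-103 had lowered further in NT cells. Under CB-103 IFI27, a mitochondrial protein measured at 0.716 to 2.59 CPM, was lower in KO cells (-0.94 ± 0.30, adjusted p = 0.019), a call lost without NT CB-103 replicate 2 (adjusted p = 0.056, at -0.88), NT CB-103 replicate 3 (adjusted p = 0.06, at -0.87) or KO CB-103 replicate 3 (adjusted p = 0.069, at -0.86). Under GSI, IFITM2 (0.65 ± 0.08, adjusted p = 9e-06) and PSMB9 (0.38 ± 0.07, adjusted p = 0.00056) were higher in KO cells.

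Between the inhibitors themselves, CB-103 against GSI, 34 of 47 genes were called in KO cells (72.3%, against 47.9% of all genes), 15 higher (24.7% of all genes) and 19 lower (23.1%). In NT cells 33 were called (70.2%, against 56.3%), 12 higher (29.2% of all genes) and 21 lower (27.1%). The doses are not known, so these differences hold for the treatments as given. ISG20 was highest with CB-103 relative to GSI, by 1.96 ± 0.08, adjusted p = 1.5e-12 in KO and 2.56 ± 0.08, adjusted p = 2.7e-14 in NT cells. IFI44 followed with 1.88 in KO and 1.65 in NT cells, then MX2 with 1.19 in KO and OAS1 with 1.65 in NT cells. At the other end, after NLRC5, stood IFITM2 (-1.33 in KO and -2.02 in NT cells) and IFIT1 (-1.14 in KO and -1.69 in NT cells).

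Other genes of the pathway were taken from lists chosen without regard to the direction of change, though with earlier results of these data known. Of 43 other interferon-induced genes 38 were tested, and with CB-103 7 rose and 21 fell in KO cells (median -0.28), while 5 rose and 26 fell in NT cells (median -0.44). Thus 73.7% of the list were called in KO and 81.6% in NT cells, against 48.6% and 58.2% of all genes tested. Among them the guanylate-binding protein genes GBP1 and GBP4 changed by -1.25 and -1.60 in KO cells and by -2.49 and -2.44 in NT cells. TNFSF10, the death ligand TRAIL, fell with CB-103 (-1.68 ± 0.06 in KO and -2.41 ± 0.06 in NT cells) and with GSI (-2.08 ± 0.06 in KO and -2.57 ± 0.06 in NT cells). Of 11 receptor and JAK-STAT genes, 4 rose and 2 fell in KO cells and 6 rose and 3 fell in NT cells with CB-103 (54.5% called in KO and 81.8% in NT cells). Of 18 other antigen presentation genes, 5 rose and 4 fell in KO cells and 6 rose and 3 fell in NT cells (50% called in KO and 50% in NT cells), in KO cells a share near that of all genes. The largest changes in that list were those of the endoplasmic reticulum chaperones of peptide loading PDIA3 (1.66 in KO and 1.84 in NT cells), CALR (1.30 in KO and 1.62 in NT cells) and CANX (1.45 in KO and 1.53 in NT cells). Of 9 tested regulators and inhibitors, 1 rose and 5 fell in KO and 1 rose and 6 fell in NT cells (66.7% called in KO and 77.8% in NT cells), among them SOCS3, which restrains JAK signalling (-1.23 in KO and -1.68 in NT cells). Of 18 tested genes of nucleic acid sensing, 7 rose and 4 fell in KO and 5 rose and 6 fell in NT cells (61.1% called in KO and 61.1% in NT cells), in NT cells a share near that of all genes. The kinase TBK1 of that list stood at 1.14 in KO and 1.30 in NT cells.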

How the data were processed

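Messenger RNA of RPMI-8402 cells was read from polyA-selected, stranded, paired-end libraries, per the labels' protocols. Tools named in the submitters' processing notes, without a role, are Salmon 1.4.0, HISAT2 2.2.1, FastQC 0.11.9 and bcl2fastq 2.20, with the build hg38. Rounded expected counts of each gene were deposited by the authors and used unchanged. TPM per transcript was deposited for each library, per the file headers, and was summed per gene here to compare levels between genes. All 206601 transcripts matched GENCODE 29, which supplied coordinates and symbols.

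With edgeR 4.0.16 in R 4.3.3, filterByExpr (minimum count 10) left 17346 genes, and the 18 libraries were scaled by trimmed means of M values (factors 0.954 to 1.03). A quasi-likelihood F test with 1 mean per group and 12 residual degrees of freedom gave 9 comparisons of groups and 2 interaction contrasts. Benjamini-Hochberg adjustment ran over all genes tested. CPM values carry these factors. Proteasome ratios were compared by exact permutation tests.

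The 48 genes, the pathway and marker lists, and the tests were chosen with earlier results of these data known. Values in every library are given for 13 listed genes and, beside them, for the genes with the largest called changes in each comparison at a mean of at least 1 CPM. Alternatives were DESeq2 1.42.0, other scaling and filtering, a replicate block, transcript sums, the compared groups alone, replicates 2 and 3 alone, and leaving out each library.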

Additional observations from a re-analysis of the deposited data

Results flagged for a closer look

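The log2 response to an inhibitor differed between the genotypes by the edgeR interaction term, KO minus NT, for the genes given here, the 6 with the largest difference for CB-103 and all 4 for GSI. With CB-103 the response of IFIT3 was -0.24 in KO and -1.57 in NT cells, with a difference of 1.33 ± 0.17 (edgeR adjusted p = 5.6e-05). The response of IFITM2 was -1.25 in KO and -2.41 in NT cells, with a difference of 1.16 ± 0.12 (edgeR adjusted p = 1.1e-05). PSMB10 responded by -0.68 in KO and -1.73 in NT cells, with a difference of 1.05 ± 0.24 (edgeR adjusted p = 0.0058). OAS3 responded by -0.86 in KO and -1.65 in NT cells, with a difference of 0.79 ± 0.10 (edgeR adjusted p = 3.8e-05). OAS1 responded by 1.25 in KO and 2.02 in NT cells, with a difference of -0.77 ± 0.20 (edgeR adjusted p = 0.016). IFIT1 responded by -0.86 in KO and -1.61 in NT cells, with a difference of 0.75 ± 0.16 (edgeR adjusted p = 0.0046).

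With GSI the response of IFITM2 was 0.08 in KO and -0.39 in NT cells, with a difference of 0.47 ± 0.11 (edgeR adjusted p = 0.038). IFITM1 responded by 0.36 in KO and -0.08 in NT cells, with a difference of 0.43 ± 0.09 (edgeR adjusted p = 0.021). PSMB8 responded by 0.29 in KO and -0.08 in NT cells, with a difference of 0.37 ± 0.09 (edgeR adjusted p = 0.034). MX2 responded by -0.24 in KO and -0.56 in NT cells, with a difference of 0.32 ± 0.06 (edgeR adjusted p = 0.016).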

How the results depend on the processing

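Counts of called genes stayed within 1.5 times of those reported under every alternative run, except the GSI response of KO minus NT cells. There 4 genes were called, 0 with library totals as the scale, 0 with replicates 2 and 3 alone, and 0 to 9 when 1 library was left out (0 without NT DMSO replicate 1 or KO GSI replicate 3, 9 without NT GSI replicate 2). The cause was not tested. Leaving out 1 library gave 30 to 32 called genes for CB-103 in KO cells, 34 to 37 for CB-103 in NT cells, 13 to 18 for GSI in KO cells, 12 to 16 for GSI in NT cells, 21 to 29 for KO against NT under CB-103, 20 to 21 under GSI and 13 to 15 under DMSO, 32 to 35 for CB-103 against GSI in KO cells, 30 to 35 in NT cells, and 12 to 18 for the CB-103 response of KO minus NT cells. No call changed sign under any alternative. Of the results per gene, DESeq2 gained 11 calls and lost 3, library totals gained 12 and lost 18, and no count filter gained 14 and lost 19. Transcript sums gained 43 and lost 7.

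Replicate numbers were not taken as pairs: deviations from group means correlated between same-numbered libraries at 0.257 to 0.352 for number 1, -0.0713 to 0.173 for number 2 and 0.047 to 0.147 for number 3, and 15 of 18 libraries correlated best with their own number. With a replicate block 33 genes were called for CB-103 in KO cells, 38 in NT cells, 23 for GSI in KO cells and 22 in NT cells, and 19 and 6 for the CB-103 and GSI interaction terms. Across all comparisons the block gained 25 calls, ISG15 with GSI among them (-0.57, adjusted p = 0.00014 in KO cells and -0.49, adjusted p = 0.00041 in NT cells), and lost 0. It also called HLA-B with GSI in NT cells (0.23, adjusted p = 0.00056) and TAP2 with CB-103 in KO cells (-0.31, adjusted p = 0.0015), as did replicates 2 and 3 alone (0.26, adjusted p = 0.0023 for HLA-B and -0.27, adjusted p = 0.013 for TAP2). The low genes IFI44L, IFITM3 and IFI27 had the widest standard errors with CB-103 in NT cells. IFI27, not called there (0.63, adjusted p = 0.073), was called with transcript sums (1.27, adjusted p = 6.8e-05), with replicates 2 and 3 alone (0.85, adjusted p = 0.015) and in a fit to the compared groups alone (0.62, adjusted p = 0.031).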

Other observations

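TRIM22, whose total was lower in KO cells, was also made up differently there. The transcript TRIM22-207 held 68.0% ± 0.915 of the TPM of the gene in KO cells, against 26.9% ± 0.706 in NT cells, under CB-103. Under GSI it held 69.0% ± 10.8 in KO cells, against 35.8% ± 13.8 in NT cells, and under DMSO 63.7% ± 8.51 in KO cells, against 33.9% ± 2.49 in NT cells (SD, n = 3 each). These shares come from estimated transcript levels of a gene with 11 annotated transcripts, were noticed after the values were seen, and were not tested.

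Replicate 1 differed from replicates 2 and 3 across the groups. Of the 47 tested genes 7 were higher and 3 lower in replicate 1 (21.3% called, against 14.3% of all genes), among them ISG15 (-0.54), HLA-B (-0.28), TAP2 (0.39) and PSMB10 (0.29). The labels do not say what the number stands for.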
